A study of Mus musculus with 16 samples.

Results

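TNF superfamily ligands and receptors were followed in mouse macrophages through 10 genes chosen by symbol, with earlier results of these data known. The members were the ligands Tnf, Tnfsf9 and Tnfsf10, the receptors Tnfrsf1a, Tnfrsf1b, Tnfrsf9, Cd40 and Fas, the receptor adaptor Traf1 and the TNF-induced gene Tnfaip2, so 8 of the 10 are ligands or receptors. They were found by symbol among 55487 genes in the deposited table of counts, of which 12372 passed the filter of more than 1 CPM (counts scaled to a common total) in at least 2 samples and were tested. All 10 members passed it, but Tnfsf10 passed only through the 2 samples in DMEM, and Tnfrsf9 was below 1 CPM in every sample without tumor medium. Bone marrow-derived macrophages (BMDMs) are macrophages grown in culture from marrow precursors, here from 8-week-old wild-type (WT) Balb/c mice. The study treated them with conditioned media (CM) from 4T1 cells, a mouse mammary tumor line, to learn how tumor factors and inhibition of the kinases JAK1 and JAK2 change macrophage gene expression. The 16 samples fall into 6 groups: DMEM medium alone (n = 2), ruxolitinib (Rux, a JAK1/2 inhibitor) in DMEM (n = 3), CM (n = 3), CM + Rux labelled 2 h (n = 2), CM + Rux labelled 4 h (n = 3), and CM + Rux + IKK-16, an inhibitor of the IKK kinases upstream of NF-κB (n = 3). Ruxolitinib was used at 0.5 μM in CM and IKK-16 at 0.8 μM, and the dose of ruxolitinib in DMEM is not given in the labels. The methods describe a treatment of 4 h, and what the 2 h label refers to is not stated. CM + Rux without a time means the samples labelled 4 h.

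TNF superfamily ligands are mostly membrane proteins that act as trimers, and some are also released in soluble form. They bind receptors that recruit TRAF adaptors, which lead to NF-κB and MAP kinases, or death domain proteins, which can lead to cell death. In macrophages, TNF is a central inflammatory cytokine whose own gene is a target of NF-κB, while the gene of TRAIL, Tnfsf10, is known as a target of interferons, which signal through JAK kinases and STAT proteins.

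Promoter sequence is shown for 3 members whose levels moved in different ways, Tnf, Tnfsf10 and Tnfrsf9. RefSeq promoter windows of build GRCm38.p6, from 250 bases before to 50 after a transcription start, matched 8 of the 10 members, with none for Cd40 and Tnfsf9. Only the 250 bases before the start are printed, 5′ to 3′ on the strand of the gene. Tnf lies on the minus strand (chr17:35202008-35202257), Tnfsf10 on the plus strand (chr3:27316827-27317076) and Tnfrsf9 on the plus strand, with its downstream window shown (chr4:150927749-150927998). Capitals mark matches on either strand to an interferon regulatory factor core (AANNGAAA) in Tnfsf10, and to the interferon-gamma activated sequence (GAS, TTCNNNGAA) and the NF-κB consensus in Tnfrsf9.
Tnf: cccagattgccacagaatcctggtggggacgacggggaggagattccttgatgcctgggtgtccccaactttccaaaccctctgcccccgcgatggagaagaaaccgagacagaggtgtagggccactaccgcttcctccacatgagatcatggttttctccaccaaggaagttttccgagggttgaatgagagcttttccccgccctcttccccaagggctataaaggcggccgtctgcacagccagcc
Tnfsf10: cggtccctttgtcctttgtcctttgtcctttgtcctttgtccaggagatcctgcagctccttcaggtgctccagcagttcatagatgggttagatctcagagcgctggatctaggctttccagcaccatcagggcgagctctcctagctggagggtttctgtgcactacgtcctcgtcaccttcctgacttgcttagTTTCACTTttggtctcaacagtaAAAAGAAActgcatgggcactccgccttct
Tnfrsf9: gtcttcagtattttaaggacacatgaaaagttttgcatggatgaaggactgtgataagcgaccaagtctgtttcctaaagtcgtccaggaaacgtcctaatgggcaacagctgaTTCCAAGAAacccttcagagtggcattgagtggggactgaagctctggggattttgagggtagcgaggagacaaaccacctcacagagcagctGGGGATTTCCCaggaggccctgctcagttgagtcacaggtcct
The window of Tnfsf10 held the 8-base core at 2 places, and 23.9% of all 32851 windows of this length held it at least once. The downstream window of Tnfrsf9 held the NF-κB consensus at 2 overlapping places, against 4.51% of all windows with a match, and GAS, against 8.3%. No match to the NF-κB consensus, to GAS, to the core or to the longer interferon-stimulated response element (ISRE, searched as GAAA, any 2 bases and GAAA, and held by 3.44% of windows) was found in the window of Tnf. GAS was also matched in the windows of Tnfrsf1a, Tnfrsf1b and Fas, the core in those of Tnfrsf1b and Fas and the upstream window of Tnfrsf9, and ISRE in that of Tnfrsf1b. The core overlaps ISRE, so a match to the second always holds the first.

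The counts of a sample summed to 18449388 at the lowest and 46215853 at the highest. All 8 macrophage markers examined, from Adgre1 to Lyz2, were above 1 CPM in every group. None of 7 epithelial markers reached 1 CPM in any group (their sum was at most 1.45 CPM per sample), and 7 T and NK cell markers summed to at most 0.0552 CPM. Of 5 fibroblast markers, which summed to 5.74 to 20.9 CPM with ranges that overlapped between all groups, Col1a1 and Col1a2 were above 1 CPM in every group. The sum of 7 neutrophil markers was 0.287 to 3.15 CPM, mostly S100a8, with Ly6g at 0 in all samples, and that of 5 B cell markers 0.122 to 1.23 CPM, mostly Cd79b, with Pax5 at 0. A sum of 5 dendritic cell markers varied with the groups, through Ccr7 and Zbtb46, and its values stand beside the results below. The labels give replicate numbers but not what separates replicates, so p-values measure the spread between these samples only, which may be technical. In bulk RNA, fewer cells of a type and less RNA per cell cannot be told apart. The test was edgeR's quasi-likelihood test on all 12372 genes together, and a gene is called where its adjusted p is under 0.05 and its log2 fold change is beyond 0.5 in size. Values in CPM use totals scaled by relative log expression (RLE).

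The members spanned a wide range of levels. Per length of transcript, in CPM per kilobase of exon (RPKM), Tnfrsf1b was the most abundant receptor, at 233 RPKM in DMEM and 1440.4 RPKM in CM (group means). Tnfrsf1a, the other TNF receptor and the only one of the pair with a death domain, had 62.9 and 75.0 RPKM in the same groups. Tnf itself had 53.1 RPKM in DMEM and 149 RPKM in CM, above the other ligands Tnfsf9 (6.41 and 31.2 RPKM) and Tnfsf10 (0.81 and 0.0559 RPKM). Group means of a member differed most for Tnfrsf9, by 653-fold between the lowest and the highest, and least for Tnfrsf1a, by 1.62-fold. The lowest mean of Tnfrsf9, in DMEM, rests on 6 and 5 counts, so the size of its fold is poorly known. Cd40lg and Fasl, the ligands of CD40 and Fas, had 0 counts in all 16 samples, which allows levels of up to 0.067 to 0.175 CPM by sample (3 counts, for counting error only).

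**Figure D1:**
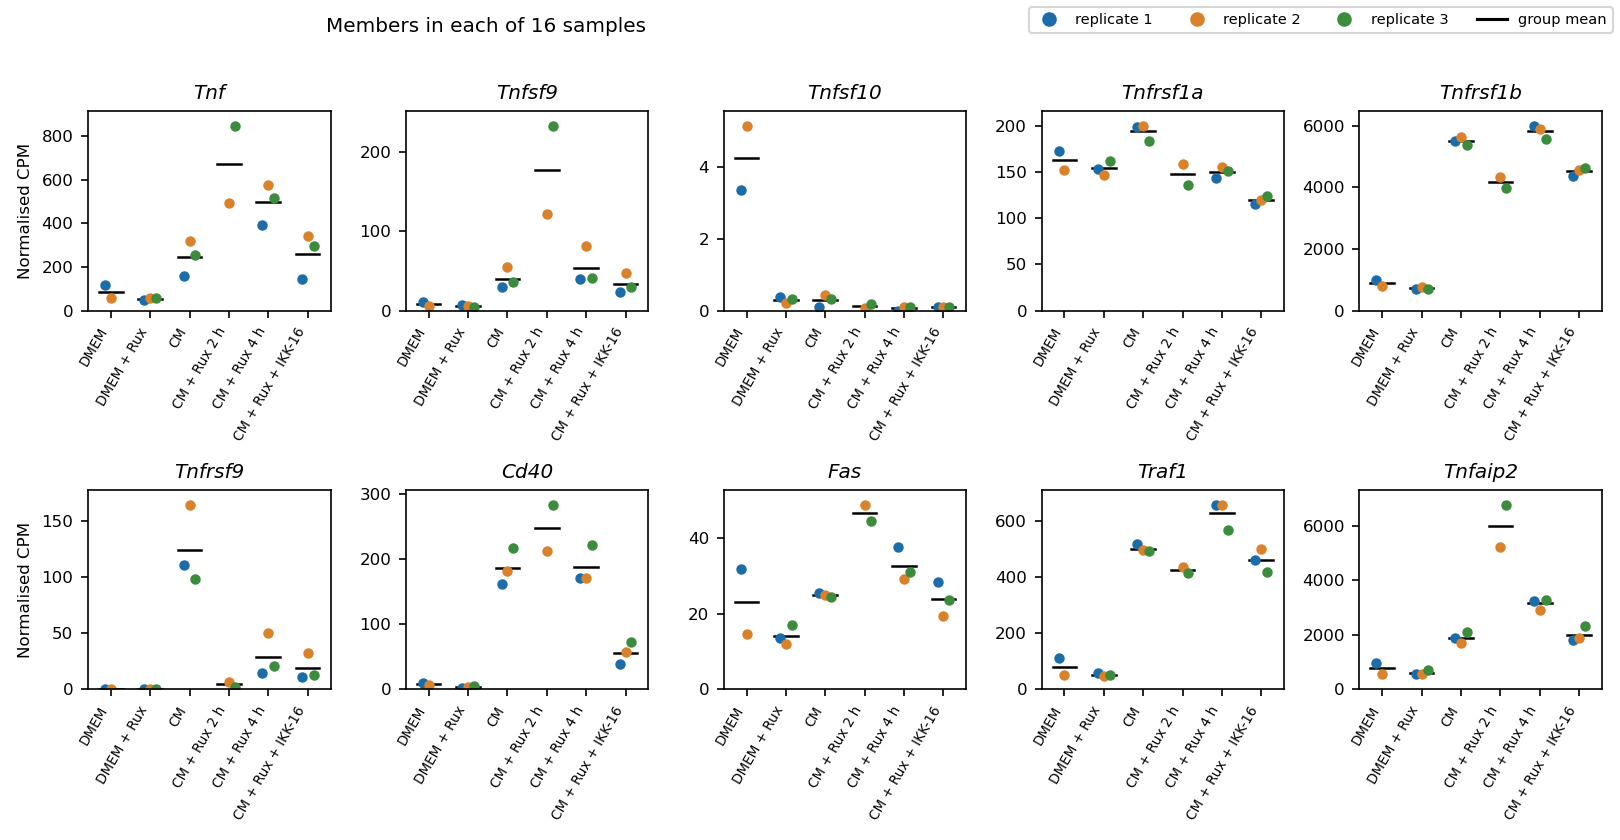
Normalised CPM (linear axes from 0, a scale for each gene) of the 10 members in each sample of the 6 groups, coloured by replicate number, with a black line at the group mean. Tnfrsf9 was highest in the 3 CM samples (98.5 to 164.6 CPM), Tnfsf10 in the 2 DMEM samples (3.37 and 5.16 CPM), and Tnfaip2 in the 2 samples labelled 2 h (5227 and 6771 CPM).

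The response to tumor factors was measured by CM against DMEM. Among the ligands, CM-treated BMDMs had more Tnf and Tnfsf9 and less Tnfsf10. Of the receptors, Tnfrsf9, Cd40 and Tnfrsf1b were higher in CM, as were Traf1 and Tnfaip2, while Tnfrsf1a and Fas were not called. Over the members, 7 were called higher and 1 lower, where 20.9% of all genes tested were called higher and 24.1% lower. The member called lower, Tnfsf10, was among the genes tested only through its level in DMEM, so its call is no independent support. Tnfrsf9, called higher, was below 1 CPM in every sample without tumor medium, so its call is none either. The median log2 fold change was 1.88 over the members and -0.00496 over all genes. As the members were chosen with earlier results of these data known, these counts are a description only. In 9 of the 10 members the CM and DMEM samples did not overlap, beside 74.8% of all genes tested. RLE scaling set the log2 fold changes here a median of 0.31 above scaling by total counts alone, under which 1536 genes were called higher and 4606 lower in place of 2584 and 2980.

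Tnf (ENSMUSG00000024401, chromosome 17 from 35199381 to 35202007 of GRCm38) had 116.6 and 57.3 CPM in DMEM, and 160.1, 320.4 and 254.5 CPM in CM replicates 1 to 3. Every CM sample was above both DMEM samples, and DMEM replicate 1 was closer to the lowest CM sample than to DMEM replicate 2. The log2 fold change was 1.49 (SE 0.40, adjusted p = 0.00498), and without DMEM replicate 2 it was 1.07 (adjusted p = 0.0744), no longer called. Tnfsf9, the 4-1BB ligand (ENSMUSG00000035678, chromosome 17), had 10.5 and 6.02 CPM in DMEM, and 30.0, 55.3 and 35.5 CPM in CM. The log2 fold change was 2.27 (SE 0.46, adjusted p = 0.000686). Tnfsf10, which encodes TRAIL (ENSMUSG00000039304, chromosome 3), had 3.37 and 5.16 CPM in DMEM (114 and 126 counts), and 0.111, 0.446 and 0.326 CPM in CM (2, 15 and 8 counts). It was low in every CM sample, with a log2 fold change of -3.72 (SE 0.43). Because the 2 DMEM samples alone carried it past the filter, the adjusted p given is that of the edgeR fit without a filter (-3.72, adjusted p = 6.84e-10), and in the filtered fits it could not be tested without either DMEM sample. The fit without a filter is not the stricter one, as the filtered fit gave 5.42e-06. For Tnf in CM + Rux against CM it gave 0.000847 in place of 0.123.

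Tnfrsf9, the 4-1BB receptor (ENSMUSG00000028965, chromosome 4), was near the detection limit in DMEM, with 6 and 5 counts (0.177 and 0.205 CPM). In CM it had 110.8, 164.6 and 98.5 CPM, a log2 fold change of 9.34 (SE 0.94, adjusted p = 1.63e-06), the largest among the members. Only samples with tumor medium carried it past the filter, so this call is no independent support. Cd40 (ENSMUSG00000017652, chromosome 2), a costimulatory receptor of antigen-presenting cells, had 10.1 and 6.59 CPM in DMEM and 162.8, 181.4 and 217.4 CPM in CM. CM samples were thus all far above DMEM, with a log2 fold change of 4.47 (SE 0.35, adjusted p = 1.52e-07). Tnfrsf1b, the TNF receptor that binds TRAFs directly (ENSMUSG00000028599, chromosome 4), had 984 and 797 CPM in DMEM and 5492, 5627 and 5379 CPM in CM. The samples of each group lay close together, and the log2 fold change was 2.63 (SE 0.11, adjusted p = 1.01e-09). Tnfrsf1a (ENSMUSG00000030341, chromosome 6) had 173 and 152.8 CPM in DMEM and 199, 200.1 and 183.9 CPM in CM. The difference of 0.25 on the log2 scale (SE 0.08, adjusted p = 0.0168) was within the fold threshold, and under scaling by total counts it was -0.06. Fas, a death receptor (ENSMUSG00000024778, chromosome 19), had 31.8 and 14.7 CPM in DMEM, and all 3 CM samples, at 24.4 to 25.6 CPM, lay between them. Fas had a log2 fold change of 0.10 (SE 0.25, adjusted p = 0.753), or -0.22 under scaling by total counts, and without DMEM replicate 1 it was 0.77 (adjusted p = 0.0119).

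Traf1 (ENSMUSG00000026875, chromosome 2), an adaptor that joins several of these receptors to NF-κB signalling and is itself an NF-κB target, had 112.2 and 49.97 CPM in DMEM and 518, 497 and 494 CPM in CM. The increase was 2.63 on the log2 scale (SE 0.24, adjusted p = 7.65e-07). Tnfaip2 (ENSMUSG00000021281, chromosome 12), named for its induction by TNF, had 974 and 567.0 CPM in DMEM and 1887, 1696 and 2122 CPM in CM, a log2 fold change of 1.30 (SE 0.21, adjusted p = 0.000101). For 8 of the 10 members, all but Tnfsf10 and Tnfrsf9, DMEM replicate 1 was above DMEM replicate 2. The sum of the 5 dendritic cell markers was 1.31 to 2.25 CPM in DMEM, with Flt3 at 0, and 4.23 to 6.77 CPM in CM, where 2 of the 5 (Ccr7 and Zbtb46) were above 1 CPM. The neutrophil sum was 0.287 to 0.296 CPM in DMEM and 1.72 to 3.15 CPM in CM. The epithelial sum was 0.0409 to 0.118 CPM and 0.896 to 1.45 CPM, and the B cell sum 1.15 to 1.21 CPM and 0.122 to 0.267 CPM, in the same order. The part of these cell types in the differences was not tested.

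**Figure D2:**
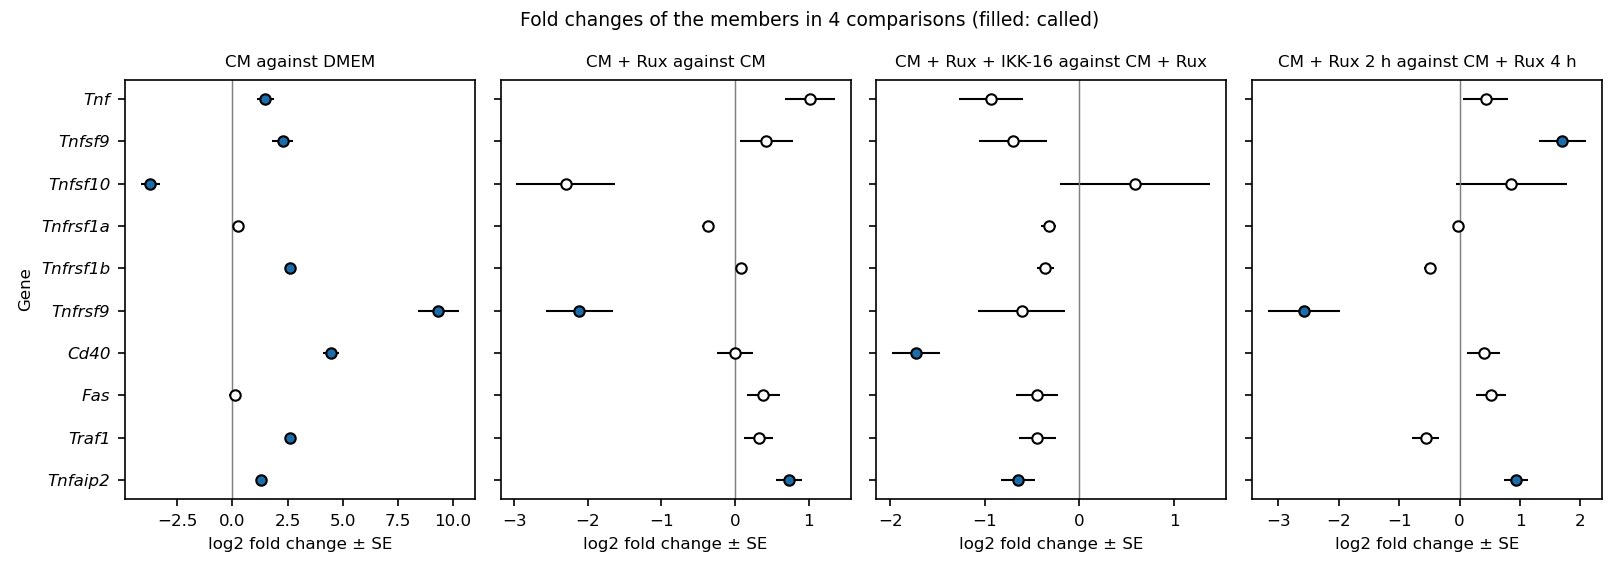
Log2 fold change (horizontal axes, bars for SE, a scale for each panel) of each member in 4 comparisons named above the panels, from tumor medium on the left to the 2 h and 4 h labels on the right. Filled points are called. In CM against DMEM 8 members are filled, in the others 2, 2 and 3, and Tnfrsf9 lies at 9.34, -2.11, -0.61 and -2.58 across the panels.

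Ruxolitinib without tumor medium was measured by DMEM + Rux against DMEM. Tnfsf10 was lower, and no other member was called. It had 0.369, 0.201 and 0.324 CPM (8, 9 and 10 counts) with ruxolitinib, far below both DMEM samples, a log2 fold change of -3.88 (SE 0.42). DMEM is again the group that carried it past the filter, and in the fit without a filter the log2 fold change was also -3.88 (adjusted p = 3.65e-09, beside 0.000117 with the filter). Its level with ruxolitinib in DMEM, 0.298 ± 0.0871 CPM (SD, n = 3), and its level in CM, 0.294 ± 0.169 CPM (SD, n = 3), were within each other's range, and both comparisons share the 2 DMEM samples. Of the members, 0 were called higher and 1 lower, beside 0% of all genes called higher and 0.97% lower. DESeq2 also called 0 genes higher, and 50 genes were higher at an unadjusted p under 0.05 and beyond the fold threshold in the edgeR fit. Cd40 had 2.08, 3.46 and 5.21 CPM with ruxolitinib, all below the 10.1 and 6.59 CPM of DMEM. Its log2 fold change of -1.21 (SE 0.33) had an adjusted p = 0.186, and with the replicate number as a block it was -1.42 (SE 0.23, adjusted p = 0.00335). DESeq2 called it too (-1.21, adjusted p = 0.00771).

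For Tnf, ruxolitinib in DMEM gave 47.6, 55.8 and 58.4 CPM, which overlapped the DMEM samples (log2 fold change -0.69, SE 0.38, adjusted p = 1). Traf1 had 49.7 to 58.7 CPM and Fas 12.0 to 17.1 CPM, and both ranges held the value of DMEM replicate 2. Without DMEM replicate 2, Fas (-1.16, adjusted p = 0.012) and Traf1 (-1.08, adjusted p = 0.000323) were called lower with ruxolitinib, and without DMEM replicate 1 the fold change of Traf1 was 0.08. With 2 DMEM samples that differ in this way, the ruxolitinib effect on these genes in DMEM rests on which of them is used. Without tumor medium, Tnfrsf9 stayed near its limit in every sample, with 5 to 8 counts.

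The effect of ruxolitinib in tumor medium was measured by CM + Rux against CM. Tnfrsf9 was lower and Tnfaip2 higher, and 7 of the 10 members did not overlap between the groups, beside 19.2% of all genes tested. That is 1 member called higher, beside 1.2% of all genes, and 1 called lower, beside 2.13%. Tnfrsf9 had 14.4, 50.4 and 21.0 CPM in CM + Rux, so that every sample was below the lowest CM sample (98.5 CPM). The log2 fold change was -2.11 (SE 0.46, adjusted p = 0.0162), and every CM + Rux sample was still above both DMEM samples. A fit of only the groups compared gave an adjusted p = 0.0511, and the call was also lost without CM replicate 2 (0.0723), CM + Rux replicate 1 (0.0806) or replicate 3 (0.0804). Tnfaip2 had 3244, 2923 and 3297 CPM in CM + Rux, above the highest CM sample (2122 CPM), with a log2 fold change of 0.73 (SE 0.18, adjusted p = 0.0329). This call was lost without CM replicate 1 (adjusted p = 0.0972) or 2 (0.142), and without CM + Rux replicate 1 (0.11) or 3 (0.104).

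Tnf had 394.5, 577 and 517 CPM in CM + Rux, each above all 3 CM samples. The log2 fold change of 1.02 (SE 0.34) had an adjusted p = 0.123, and with the replicate block, in which each sample is set against those of the same number, it was 1.03 (SE 0.30, adjusted p = 0.0416). Tnfsf10 had 0, 4 and 2 counts in CM + Rux and was not called (log2 fold change -2.30, SE 0.67, adjusted p = 0.0742), though it was with the block (adjusted p = 0.0399), with DESeq2 (0.0385) and without a filter (0.0282). With at most 15 counts in any of these samples, the size of that difference is poorly known. Cd40 overlapped between the groups, at 171.5, 170.8 and 222.3 CPM in CM + Rux, with a log2 fold change of 0.01 (SE 0.24, adjusted p = 0.995). Tnfrsf1b was likewise not called (0.08, SE 0.09, adjusted p = 0.788). Tnfrsf1a had 143.3, 156 and 151.8 CPM in CM + Rux, below all CM samples, and its log2 fold change of -0.37 (SE 0.07, adjusted p = 0.01) was within the fold threshold. Traf1 (0.32), Fas (0.39) and Tnfsf9 (0.42) had positive log2 fold changes that were not called (adjusted p = 0.502, 0.465 and 0.698). The dendritic cell marker sum was 7.18 to 10.9 CPM in CM + Rux against 4.23 to 6.77 CPM in CM, and the B cell sum 0.356 to 0.63 CPM against 0.122 to 0.267 CPM, and their part was not tested.

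CM + Rux against CM shares its CM samples with CM against DMEM, so the values of each are given on their own. Whether ruxolitinib acted differently in CM and in DMEM was tested by the interaction, the log2 effect in CM minus that in DMEM. None of the members was called, beside 0.234% of all genes called higher and 0.178% lower, and 433 and 309 genes passed an unadjusted p under 0.05 beyond the fold threshold. With the replicate block, 4 members were called, all with a higher effect in CM, where the block called 2% of all genes higher and 1.59% lower. These were Tnf (1.91, SE 0.47, adjusted p = 0.0353), Cd40 (1.42, SE 0.27, adjusted p = 0.0092), Fas (1.02, SE 0.26, adjusted p = 0.0425) and Tnfaip2 (1.13, SE 0.18, adjusted p = 0.00391). Without the block their values were 1.71, 1.21, 1.10 and 1.06 (adjusted p = 0.183, 0.284, 0.203 and 0.111). DESeq2 called 1 of them, Tnfaip2 (1.06, adjusted p = 0.00907). Over all alternatives the values ranged from 1.10 to 2.13 for Tnf, 0.86 to 1.55 for Cd40, 0.43 to 1.54 for Fas and 0.62 to 1.39 for Tnfaip2. By replicate number, Tnf, Fas and Tnfaip2 were each higher with ruxolitinib in all 3 CM pairs. In DMEM, with 2 pairs, Tnf and Fas were lower with ruxolitinib in both, but mostly in pair 1. Tnf went from 116.6 to 47.6 CPM in pair 1 and from 57.3 to 55.8 CPM in pair 2. Fas went from 31.8 to 13.7 CPM and from 14.7 to 12.0 CPM, in the same order. Tnfaip2 went from 974 to 568 CPM in pair 1 and had 567.0 and 568 CPM in pair 2. Cd40 was lower with ruxolitinib in both DMEM pairs, and its CM pairs went both ways, from 162.8 to 171.5, from 181.4 to 170.8 and from 217.4 to 222.3 CPM.

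**Figure D3:**
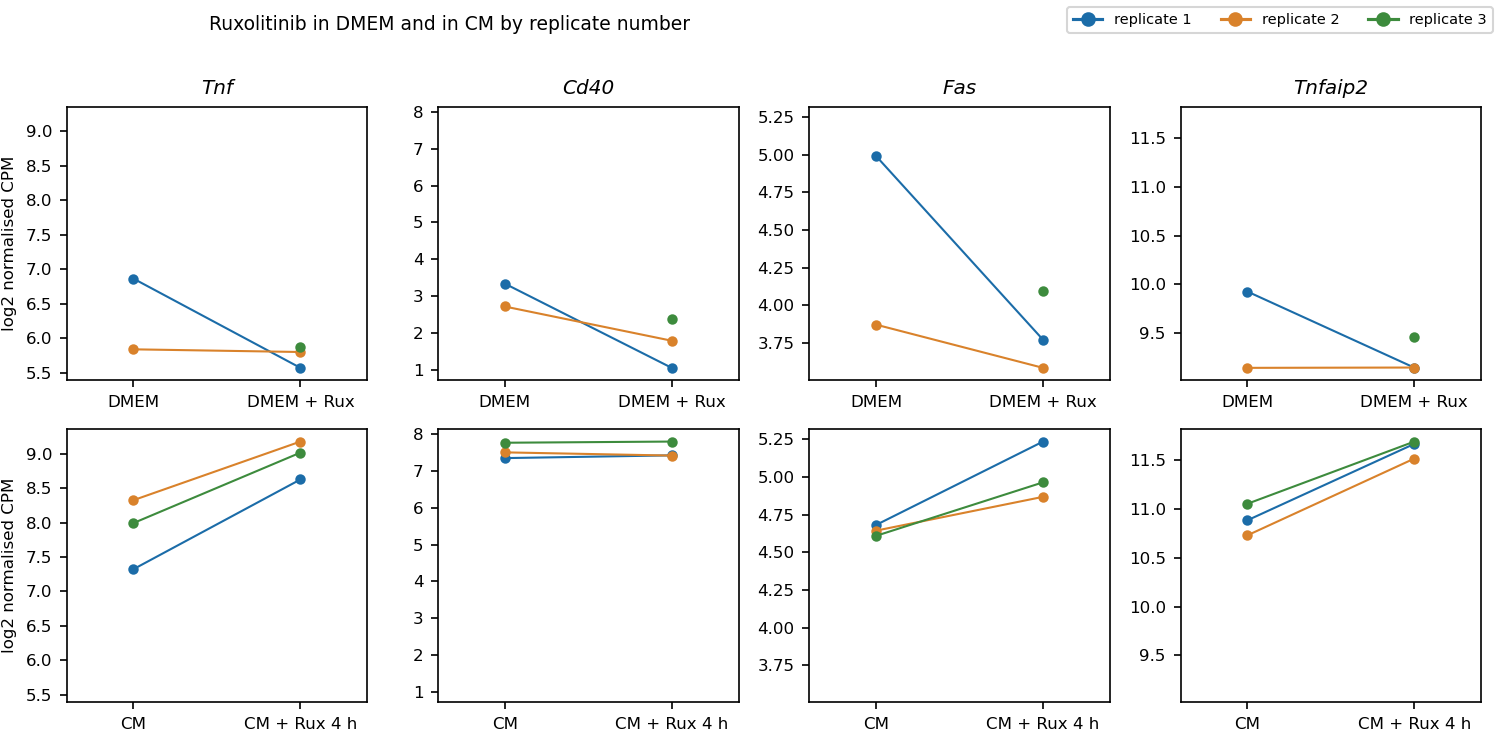
Log2 normalised CPM of Tnf, Cd40, Fas and Tnfaip2 without and with ruxolitinib, in DMEM (top) and in CM (bottom), with lines joining samples of the same replicate number and DMEM + Rux replicate 3 unpaired. Tnf rose in each CM pair, from 160.1 to 394.5 CPM in replicate 1. In DMEM it fell from 116.6 to 47.6 CPM in replicate 1, but only from 57.3 to 55.8 CPM in replicate 2.

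IKK-16 on top of ruxolitinib was measured by CM + Rux + IKK-16 against CM + Rux. Cd40 and Tnfaip2 were lower, and 9 of the 10 members had a negative log2 fold change, with Tnfsf10, at 3 to 4 counts per sample, as the exception. That is 0 members called higher, beside 4.07% of all genes, and 2 called lower, beside 3.66%. The median log2 fold change was -0.53 over the members and -0.00187 over all genes. Cd40 had 39.8, 57.6 and 73.0 CPM with IKK-16, all below the 170.8 CPM of the lowest CM + Rux sample. Its log2 fold change was -1.73 (SE 0.25, adjusted p = 0.000732), and it kept this call under every alternative run. Tnfaip2 had 1805, 1890 and 2334 CPM with IKK-16, below all CM + Rux samples, with a log2 fold change of -0.65 (SE 0.18, adjusted p = 0.026). That call was lost when CM + Rux replicate 1 or 3 or IKK-16 replicate 1 or 2 was left out (adjusted p = 0.0689, 0.0712, 0.107 and 0.0718), and under scaling by total counts (0.0544).

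Tnf had 142.7, 340.0 and 294.9 CPM with IKK-16, below every CM + Rux sample. Its log2 fold change of -0.94 (SE 0.34) had an adjusted p = 0.0823, and with the replicate block it was -0.97 (SE 0.30, adjusted p = 0.0299). Tnfrsf9 had 10.98, 32.6 and 13.1 CPM, which overlapped CM + Rux, and in each replicate number it was below the CM + Rux sample. Its log2 fold change of -0.61 (SE 0.46, adjusted p = 0.415) was -0.58 with the block (SE 0.19, adjusted p = 0.0339). In the fit without the block, leaving out CM + Rux replicate 2, at 50.4 CPM, turned it to 0.10 (adjusted p = 0.919). Tnfrsf1b (4385, 4565 and 4630 CPM) and Tnfrsf1a (115.4, 120.1 and 124.1 CPM) were below all CM + Rux samples. Their log2 fold changes of -0.36 (SE 0.09, adjusted p = 0.0138) and -0.33 (SE 0.07, adjusted p = 0.0101) were within the fold threshold. Traf1 (-0.45), Fas (-0.45) and Tnfsf9 (-0.70) were not called (adjusted p = 0.146, 0.194 and 0.221). The dendritic cell marker sum was 3.38 to 4.96 CPM with IKK-16 against 7.18 to 10.9 CPM in CM + Rux, and its part was not tested.

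Both inhibitors together were also set against CM alone, a comparison that shares its samples with those above. Tnfrsf1a, Tnfrsf9 and Cd40, all receptors, were called lower, and no member was called higher (3 of 10 and 0 of 10, beside 6.13% and 6.6% of all genes). The log2 fold changes were -0.70 for Tnfrsf1a (SE 0.07, adjusted p = 3.07e-05), -2.73 for Tnfrsf9 (SE 0.47, adjusted p = 0.00109) and -1.72 for Cd40 (SE 0.25, adjusted p = 0.000322). RLE scaling set the log2 fold changes of this comparison apart by a median of -0.11 from scaling by total counts. Tnf (245 ± 80.6 and 259 ± 103 CPM, SD, n = 3 each), Tnfaip2 (1902 ± 213 and 2009.9 ± 284 CPM) and Traf1 (503 ± 13.5 and 461 ± 41.9 CPM) overlapped between CM and the 2 inhibitors together. Fas overlapped too, with a log2 fold change of -0.07 that was 0.05 under scaling by total counts. Tnfsf10 was not called (-1.71, adjusted p = 0.0563), but was with the block (-1.66, adjusted p = 0.041) with DESeq2 (-1.73, adjusted p = 0.0418) and without a filter (-1.70, adjusted p = 0.0473), on 3 to 4 counts against 2 to 15.

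The samples of CM + Rux labelled 2 h and 4 h differed in 3 members beyond both thresholds. Tnfsf9 and Tnfaip2 were higher and Tnfrsf9 lower in the samples labelled 2 h, so the 4-1BB ligand and its receptor moved in opposite directions. Of the members, 2 were called higher and 1 lower, beside 12.6% and 10.7% of all genes. Tnfsf9 had 121.0 and 232.4 CPM in the 2 h samples against 39.9, 81.6 and 40.7 CPM at 4 h, a log2 fold change of 1.70 (SE 0.39, adjusted p = 0.00394). Without replicate 3 of the 2 h samples it was 1.16 (adjusted p = 0.0788) and not called. Tnfrsf9 had 6.63 and 2.40 CPM against 14.4, 50.4 and 21.0 CPM, a log2 fold change of -2.58 (SE 0.60, adjusted p = 0.00404). Tnfaip2 had 5227 and 6771 CPM, above every other sample of the series, with a log2 fold change of 0.93 (SE 0.20, adjusted p = 0.00229).

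Tnf had 495.4 and 847 CPM in the 2 h samples, and the lower of them lay among the 4 h samples (log2 fold change 0.44, SE 0.37, adjusted p = 0.38). Fas had 48.9 and 44.8 CPM against 37.6, 29.2 and 31.2 CPM. Its log2 fold change of 0.52 (SE 0.24, adjusted p = 0.107) was 0.65 with the replicate block (SE 0.18, adjusted p = 0.0103). Tnfrsf1b, at 4339.6 and 3995 CPM, was below the 4 h samples, by a log2 fold change of -0.48 (SE 0.10, adjusted p = 0.0019) just within the fold threshold. Traf1 was not called (-0.56, SE 0.22, adjusted p = 0.0603), nor was it with the block (adjusted p = 0.0565), though its samples did not overlap. It was called lower with DESeq2 (0.0332), without a filter (0.00666), in a fit of only the groups compared (0.00952) and under scaling by total counts (0.0406). Tnfsf10 had 3 counts in each 2 h sample and 0 to 4 at 4 h, which gives no usable fold. The dendritic cell marker sum was 13.1 to 16.8 CPM in the 2 h samples, with Zbtb46 at 10.1 CPM and Flt3 at 0, against 7.18 to 10.9 CPM at 4 h. The neutrophil sum was 0.387 to 1.17 CPM against 1.67 to 2.29 CPM, and the part of either was not tested.

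Across the groups, the order of the means set the members apart. Tnf, Tnfsf9, Cd40, Fas and Tnfaip2 were highest in CM + Rux 2 h and next highest in CM + Rux 4 h. At 4 h the samples of Tnf overlapped those at 2 h, and the samples of Tnfsf9 overlapped CM. Tnfrsf1b and Traf1 were highest in CM + Rux 4 h, Tnfrsf9 and Tnfrsf1a in CM, and Tnfsf10 in DMEM. For Cd40, the samples of CM + Rux 2 h (248.7 ± 49.6 CPM, SD, n = 2), CM + Rux 4 h (188 ± 29.5 CPM, SD, n = 3) and CM (187 ± 27.7 CPM, SD, n = 3) overlapped one another. For 7 members, all but Tnfsf10, Tnfrsf1a and Tnfrsf9, the lowest mean was in DMEM + Rux.

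Genes whose levels followed those of a member most closely were found by Pearson's r of log2(CPM + 1) over the 16 samples, among 9422 genes that averaged 5 CPM or more, as a description. The samples share their groups, so many genes reach a high r: 326 exceeded 0.9 for Tnf, 621 for Tnfrsf9 and 2 for Tnfsf10. Tnf was most like Tagap (r = 0.969), Arl5c (0.965) and Hivep3 (0.960). Tnfsf10 was most like Ifit3 (0.927) and Ifit2 (0.907), which are interferon-induced genes, and Dck (0.893). Tnfsf10 had 3.37 and 5.16 CPM in the 2 DMEM samples and at most 0.446 CPM in any other. Its r values therefore rest mostly on those 2 samples, and a gene high in DMEM alone would reach a high r. Ifit2 had mean levels of 97.1 CPM in DMEM, 4.997 CPM in DMEM + Rux and 11.4 CPM in CM. Ifit3 has a near-identical neighbour, so its counts are uncertain. Tnfrsf9 was most like Gpr35 (0.994), Nrg1 (0.988) and Casp8 (0.985), and Nrg1 had 114 CPM in CM and 21.4 CPM in CM + Rux, beside 125 and 28.6 CPM for Tnfrsf9.

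The rest of the superfamily was taken from hand-written lists. Of 18 ligands 11 were tested and of 28 receptors 18, and members are part of these counts. In CM against DMEM, 3 ligands were higher and 6 lower, while 9 receptors were higher and 1 lower, beside 20.9% and 24.1% of all genes. The 6 lower ligands include Tnfsf10, which passed the filter only through DMEM. The 9 higher receptors include Tnfrsf11b, which passed only through CM, and Tnfrsf9, which was below 1 CPM without tumor medium. These genes are in the medians too, and their calls are no independent support. Without DMEM replicate 2, 4 ligands and receptors were lower in place of 7. The median log2 fold change was -0.75 over the ligands and 0.78 over the receptors, against -0.00496 over all genes. Apart from members, the largest fall was that of Ltb, which encodes lymphotoxin beta, from 9.41 to 1.09 CPM (-3.13, SE 0.49, adjusted p = 8.21e-05). The receptor Tnfrsf21 fell from 35.8 to 10.5 CPM (-1.74, adjusted p = 9.3e-06). Of genes that rose, the receptor Relt had 1.87 CPM in DMEM and 12.8 CPM in CM (2.76, adjusted p = 1.24e-06), and Tnfaip3, which encodes the NF-κB inhibitor A20, had 65.3 and 531 CPM (3.02, SE 0.23, adjusted p = 1.23e-07). Among 30 adaptors and signalling proteins, all tested, 12 were higher and 3 lower, beside the same shares of all genes. Of 7 tested genes listed by their Tnfaip names, 6 were higher and 1, Tnfaip8l2, was lower, beside those shares too. The 6 include Tnfaip6, which passed the filter only through CM.

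**Figure D4:**
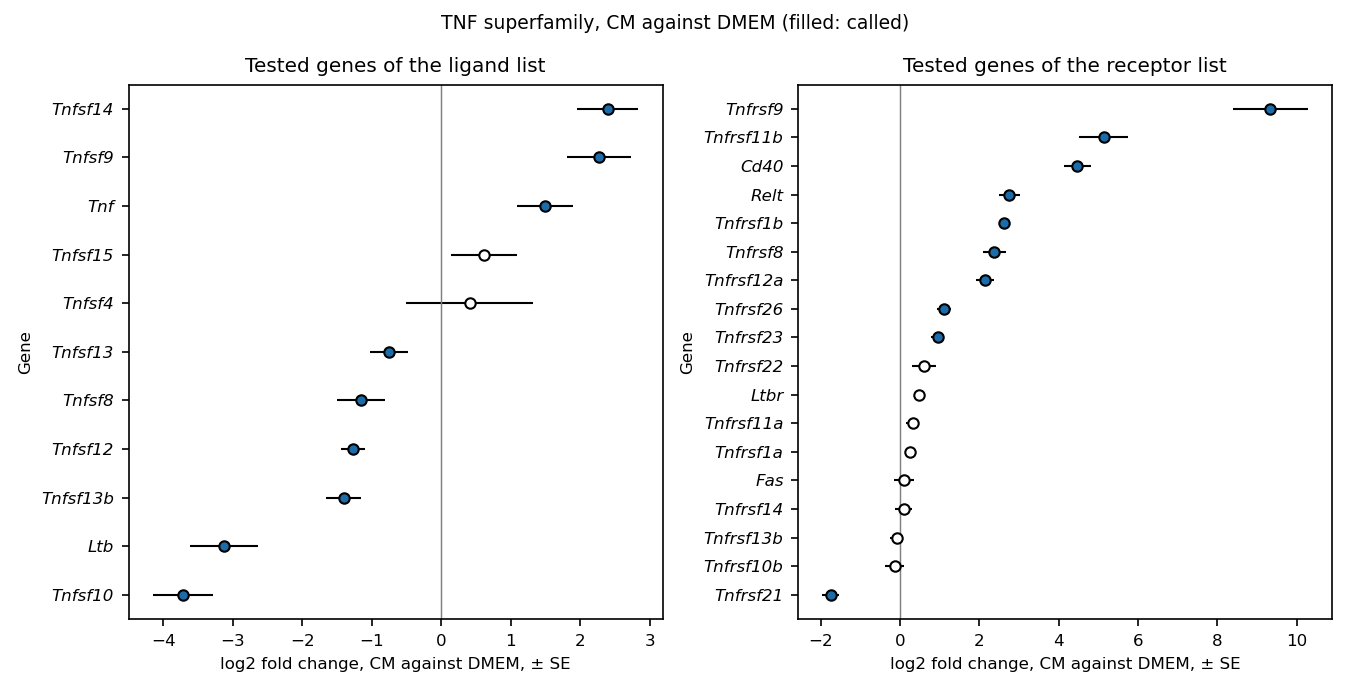
Log2 fold change in CM against DMEM (horizontal axes, bars for SE, a scale for each panel) of the 11 tested genes of the ligand list and the 18 of the receptor list, members included, sorted by value. Filled points are called: 3 ligands lie above and 6 below 0, while 9 receptors lie above and 1 below. Tnfsf10 passed the filter only through DMEM and Tnfrsf11b only through CM.

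In CM + Rux against CM, 0 ligands were called, and 4 receptors were lower and 0 higher, beside 2.13% and 1.2% of all genes. The 4 were Tnfrsf9, Tnfrsf11b, Tnfrsf23 and Tnfrsf26. Tnfrsf11b passed the filter only through CM, the higher group here, so its call is no independent support. With the replicate block 7 of the 29 tested ligands and receptors were lower and 3 higher, beside 3.56% and 2.47%, and without CM replicate 2 or CM + Rux replicate 1 or 3 the number lower was 2. Beside Tnfrsf9, Tnfrsf26 fell from 39.7 to 18.5 CPM (-1.09, adjusted p = 0.000836), though it lies among the similar receptor genes Tnfrsf22 and Tnfrsf23, whose reads may be hard to assign. Map3k5, which encodes the kinase ASK1, rose from 26.3 to 47.8 CPM (0.86, adjusted p = 0.000921), and the adaptor Traf5 from 8.90 to 14.2 CPM (0.67, adjusted p = 0.00238). Tnfaip6 was lower at 0.478 against 1.61 CPM (-1.64, adjusted p = 0.0398), and its call was lost without CM + Rux replicate 1 or 3 (0.165 and 0.12) and in a fit of only the groups compared (0.112). It passed the filter only through CM, the higher group here, so this call is no independent support. With IKK-16 on top, 1 ligand was higher and 1 lower, 4 receptors were higher and 2 lower, and 6 signalling genes were lower and 0 higher, beside 4.07% of all genes higher and 3.66% lower. The 4 higher receptors were Tnfrsf21 and the similar genes Tnfrsf22, Tnfrsf23 and Tnfrsf26, which may not be separate findings. With the block 6 ligands and receptors were higher and 6 lower, in place of 5 and 3, beside 5.81% and 5.04%. Tnfsf15, the ligand TL1A, fell from 13.0 to 4.05 CPM (-1.70, adjusted p = 0.0117), a call lost without IKK-16 replicate 1 (0.0603), and Tnip3, which encodes a partner of A20, from 289.9 to 129.4 CPM (-1.16, adjusted p = 7.04e-05). Tnfrsf26 rose from 18.5 to 62.3 CPM (1.74, adjusted p = 2.2e-05) and Tnfrsf21 from 10.7 to 21.7 CPM (1.04, adjusted p = 0.00368).

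In DMEM + Rux against DMEM, Tnfsf10 was the only ligand called and 0 receptors were called, beside 0% of all genes higher and 0.97% lower. Tnfsf10 passed the filter only through DMEM, the higher group here, so its call is no independent support. With the block, and with DESeq2, Cd40 was lower too. Of the signalling genes Rnf31, which encodes the ubiquitin ligase HOIP that acts at TNF receptors, was lower, at 32.6 against 51.8 CPM (-0.67, adjusted p = 0.000247). Rnf31 was also lower in CM + Rux + IKK-16 than in CM (35.6 against 57.8 CPM, -0.70, adjusted p = 2.2e-05), as was Tnip3 (129.4 against 290.8 CPM, -1.17, adjusted p = 2.03e-05). There Tnfrsf21 was higher (1.03, adjusted p = 0.00213), as was the ligand Tnfsf12, which encodes TWEAK (0.78, adjusted p = 0.00271), and 5 receptors were lower and 2 higher, beside 6.13% and 6.6% of all genes. The 5 include Tnfrsf11b, which passed the filter only through CM. Between the samples labelled 2 h and 4 h, 5 ligands were higher and 0 lower in the former, and 3 receptors were higher and 4 lower, beside 12.6% and 10.7% of all genes. Without 2 h replicate 3, 4 ligands and receptors were higher and 2 lower in place of 8 and 4. Tnfsf14, which encodes LIGHT, had 14.8 against 4.57 CPM (1.64, adjusted p = 0.00262), and Map3k14, which encodes the NF-κB-inducing kinase NIK, 111.4 against 35.9 CPM (1.64, adjusted p = 3.91e-05). Relt (3.63 against 7.62 CPM, -1.06, adjusted p = 0.00455) and Tab1 (9.83 against 17.8 CPM, -0.86, adjusted p = 2.14e-05) were lower.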

How the data were processed

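RNA was measured in 16 BMDM samples. The authors prepared stranded TruSeq libraries and, per the labels and the table's header, trimmed reads with Trimmomatic 0.33, aligned them to GRCm38 with HISAT2 2.1.0 and counted fragments per gene with featureCounts 1.6.2 on the Ensembl 100 annotation, with both ends mapped, reverse strand and a mapping quality of at least 10. They deposited whole-number counts, neither scaled nor filtered. This counting leaves out fragments that align to several places or genes, so genes with near copies may be undercounted.

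Symbols were assigned to 55141 of 55487 identifiers with GENCODE names for the same build. The other identifiers held 0.0459% or less of any sample's total, and 0 value columns lacked a sample. Counts were scaled by RLE, genes had to exceed 1 CPM in 2 or more samples, and the quasi-likelihood test of edgeR 4.0.16 (limma 3.58.1, R 4.3.3) was run on 1 model of 16 samples and 6 groups, with Benjamini-Hochberg adjustment over 12372 genes. Scaling, filter and thresholds follow the study's methods, whose section on statistics names another test. The fit was tested on simulated data. SE is the log2 fold change divided by the root of F. RPKM is CPM per kilobase of the exon length in the table. No pair of samples within a group were copies (chi-square per degree of freedom 14.2 to 54.4 between replicates). Pairs across groups were not compared in this way.

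Replicate numbers come from the labels, which do not say what they mark. Deviations from group means correlated in all 15 same-numbered pairs (0.224 to 0.756), and 16 of 16 samples correlated best with their own number, so values with the number as a block are given where they change a call. The alternatives were TMM, no filter, filterByExpr, the replicate block, DESeq2 1.42.0, no fold threshold, only the groups compared and each sample left out. Scaling by total counts alone was added after seeing the data. The members and gene lists were chosen with earlier results of these data known. Named are the members and, among other listed genes averaging 1 CPM or more, the 2 largest called changes per direction and comparison, and for Tnf, Tnfsf10 and Tnfrsf9 the 3 genes most alike (mean 5 CPM or more). Promoters were searched in Python 3.11.15 and plots drawn with matplotlib 3.10.9.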

Additional observations from a re-analysis of the deposited data

Results flagged for a closer look

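The effect of ruxolitinib differed between CM and DMEM, by the interaction term (log2 effect in CM minus that in DMEM), for a few genes. Among listed genes that are not members, edgeR gave 1.01 for Map3k5 (adjusted p = 0.0302) and -1.37 for Tnfrsf26 (adjusted p = 0.0256), and both were called with the replicate block too. Map3k5 was no longer called without any 1 of 9 samples, with adjusted p = 0.0505 to 0.126, and Tnfrsf26 without any 1 of 5, with 0.0515 to 0.129. With the replicate block the differences were 1.91 for Tnf, 1.42 for Cd40, 1.02 for Fas and 1.13 for Tnfaip2, and without it none of these members passed the adjusted threshold. The DMEM side rests on 2 samples without ruxolitinib that differ. Tnf went from 116.6 to 47.6 CPM in replicate 1 there, and from 57.3 to 55.8 CPM in replicate 2.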

How the results depend on the processing

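Of 989 values of members under the alternatives, 901 kept their direction and their side of the thresholds, 15 lost a call, 51 gained one, 22 uncalled values changed sign and 0 called values reversed. Of 321 values of the other named genes, 303 kept both and 18 lost the call. The causes were not tested. With the replicate block, CM + Rux against CM had 305 genes higher and 440 lower (2 and 2 members), CM + Rux + IKK-16 against CM + Rux had 4 members lower, DMEM + Rux against DMEM had 1 gene higher and 2 members lower, and the interaction had 247 genes higher and 197 lower (4 members higher). The block changed no call of a member other than those given in the text.

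Without a filter, CM + Rux against CM had 269 genes higher and 416 lower (2 and 2 members), and the interaction 213 and 136 (5 members higher). There 4 members were lower in CM + Rux + IKK-16 against CM + Rux, 4 in DMEM + Rux against DMEM and 2 in 2 h against 4 h. With DESeq2, 2 members were lower in each of CM + Rux against CM, DMEM + Rux against DMEM and 2 h against 4 h, and the interaction had 149 genes higher and 88 lower (1 member higher). Under scaling by total counts, CM against DMEM had 1536 genes higher and 4606 lower, the interaction 49 and 41, and CM + Rux + IKK-16 against CM 1255 higher, with 1 member lower in CM + Rux + IKK-16 against CM + Rux and 3 in 2 h against 4 h. Without the fold threshold, genes higher were 3883 in CM against DMEM, 225 in CM + Rux against CM (2 members lower), 831 in CM + Rux + IKK-16 against CM + Rux (947 genes and 4 members lower) and 1364 in CM + Rux + IKK-16 against CM (1493 lower), and 2471 genes and 2 members were lower in 2 h against 4 h. A fit of only the groups compared gave 0 members lower in CM + Rux against CM and 2 in 2 h against 4 h.

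With each sample left out in turn, a lone DMEM or 2 h sample was assumed to vary like the other groups. Genes called ranged from 82 to 164 higher and 161 to 322 lower in CM + Rux against CM, with 82 and 161 without CM + Rux replicate 1 and 94 and 164 without CM replicate 2, and 93 higher without CM replicate 1. In DMEM + Rux against DMEM they ranged from 0 to 5 higher, with 5 without DMEM replicate 2. In the interaction they ranged from 9 (without CM replicate 1) to 84 (without DMEM replicate 2) higher and from 5 (without DMEM replicate 1) to 34 (without CM + Rux replicate 2) lower, and every sample of its 4 groups other than CM replicate 3 moved at least 1 of these 2 counts by over 1.5 times. Members ranged from 0 to 1 lower in CM against DMEM, where Tnfsf10 could not be tested without either DMEM sample. They ranged from 0 to 1 higher and 0 to 2 lower in CM + Rux against CM, from 1 to 2 lower in CM + Rux + IKK-16 against CM + Rux, from 0 to 2 lower in DMEM + Rux against DMEM, from 0 to 3 higher in the interaction (Fas, Tnfaip2 and Traf1, without DMEM replicate 2), and from 1 to 2 higher and 1 to 2 lower in 2 h against 4 h. Depth limits Tnfsf10, with at most 15 counts outside DMEM, and Tnfrsf9 without tumor medium.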
